A study of Mus musculus with 3 samples.

Results

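Activity-regulated immediate early genes were examined for occupancy by TRα1 in the adult mouse striatum. They were a list of 10 genes (Fos, Fosb, Fosl2, Junb, Jun, Egr1, Arc, Npas4, Nr4a1 and Nr4a3) out of 21938 protein-coding genes. A TRα1 binding site was attached to a gene when its summit lay in the gene body or within 30 kb of the 5-prime end of the gene, hereafter the TSS. By this rule 39 of the 23988 binding sites of the series belonged to the 10 genes, and no site was shared by 2 of them. The rule used positions and not the strength of the sites, while the list was proposed with earlier results of these data known.

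The sites came from 3 ChIP-seq libraries of male C57BL/6J mice aged 8 weeks, made up of 2 TRα1 immunoprecipitations and 1 input. Apart from the kind of library, all 3 carried the same labels. The mice were euthyroid and untreated, and they expressed TRα1 with a GS tag in the GABAergic neurons of the striatum, so that the immunoprecipitated receptor was the tagged one and other cells of the tissue were not addressed. The driver of the tagged receptor and the number of animals behind a library were not given in the sources used here. The libraries had been turned into 1 peak list, with no value for a single library and no list for the input. Replicates were therefore not compared, no error between animals can be given, and the number of reads in a library was not analysed here. Occupancy does not show expression, so the labelled cell type could not be checked against its transcripts. Of 10 genes characteristic of striatal projection neurons 9 had a site, from Penk and Tac1 with 1 each to Ppp1r1b with 9, Rgs9 with 8, Bcl11b with 18 and Pde10a, a gene of 461277 bp, with 29. Adora2a had none. Of 10 genes characteristic of hepatocytes 4 had a site, namely Apoa1 with 2 and Cyp2e1, Hpx and Ttr with 1 each. The share over all protein-coding genes was 57.7%, which lay just below the 95% Wilson interval of the striatal list, 59.6 to 98.2%, and inside that of the hepatocyte list, 16.8 to 68.7%.

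Immediate early genes are transcribed within minutes of synaptic activity, without the need for new protein. Their promoters and enhancers are known to be held ready by the transcription factors CREB, SRF and MEF2, which respond to calcium and to kinase signalling, and in the striatum they are induced by dopamine and glutamate. Most encode transcription factors: the Fos and Jun proteins pair to form AP-1, Egr1 is a zinc finger protein, Npas4 a bHLH-PAS protein, and Nr4a1 and Nr4a3 are orphan nuclear receptors. Arc instead encodes a protein of the synapse. TRα1 itself is a nuclear receptor that binds, with RXR, to DR4, a motif of 2 AGGTCA half-sites in the same orientation that are 4 bp apart.

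Each of the 10 genes had at least 1 site, against 57.7% of all protein-coding genes. At least 2 sites were found for 9 of the 10, against 32.4% of all genes, Fos being the exception with 1 site. A member had between 1 and 7 sites (median 3), against a median of 1 over all genes. The sequence attached to the 10 genes amounted to 0.611 Mb and held 63.8 sites per Mb. The sequence attached to any protein-coding gene held 13.3 sites per Mb, and the genome as a whole 8.80. The 10 genes were short, with a median length of 5562 bp against 17425 bp over all genes, so that the flanks rather than the gene bodies made up most of their attached sequence. None of these counts was tested.

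**Figure D1:**
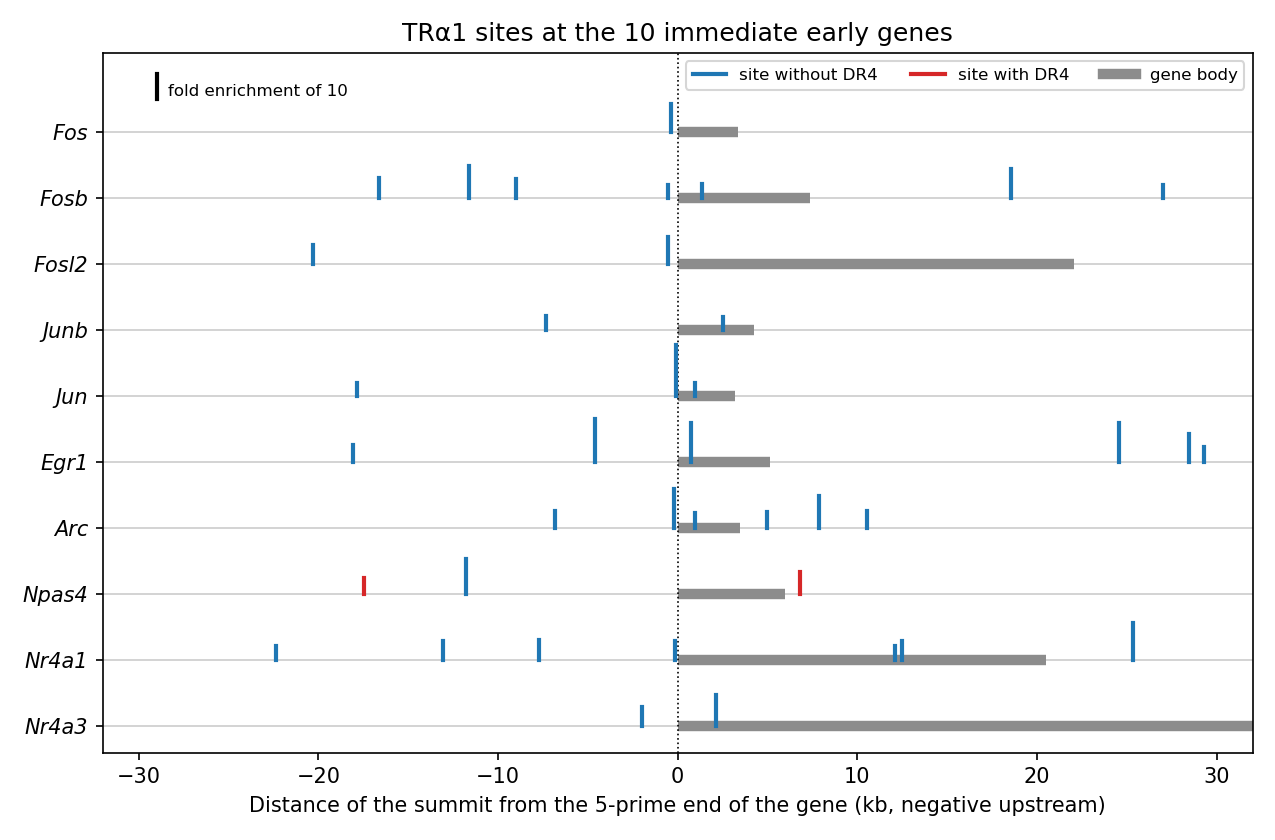
Positions of the 39 TRα1 sites at the 10 immediate early genes, as the distance of the summit from the TSS in kb on the strand of the gene. The height of each line is the fold enrichment (scale bar, 10), grey bars are gene bodies (that of Nr4a3 runs past the edge), and the 2 sites with a DR4, in red, both lie at Npas4.

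**Figure D2:**
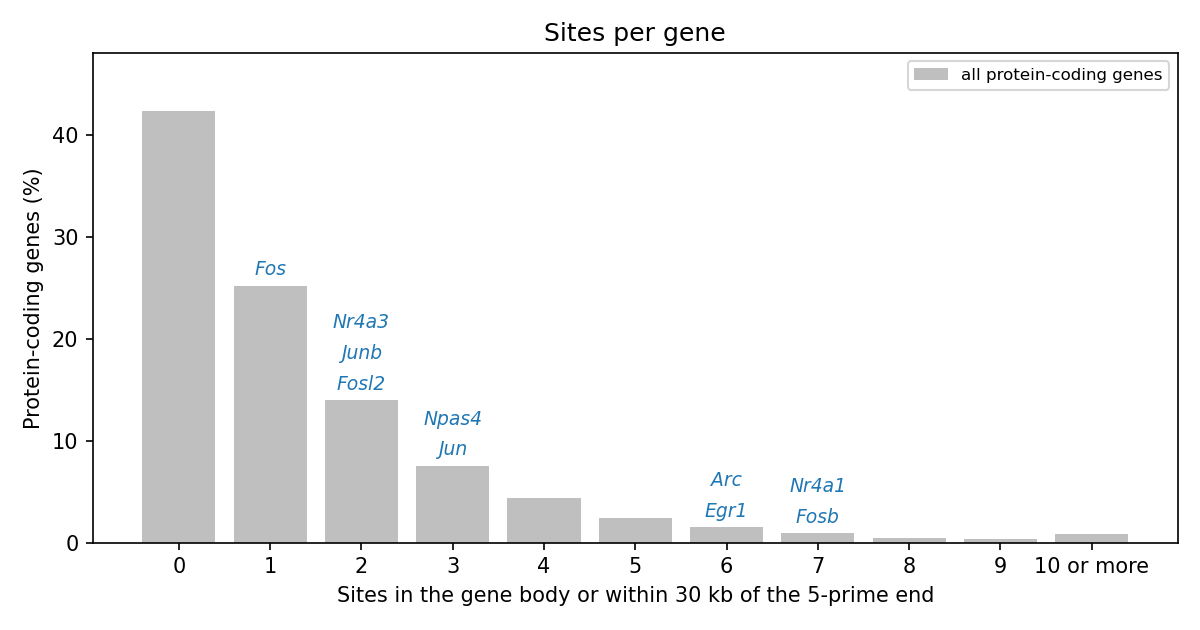
Share of the 21938 protein-coding genes (y axis, %) by the number of attached sites (x axis), with the 10 genes written above the bar of their own count. Fosb and Nr4a1 had 7 sites each, a number reached or passed by 2.64% of all genes, and Egr1 and Arc had 6 each, reached or passed by 4.17%.

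The sites lay both at the promoters and far from them. Of the 39, 9 lay within 1 kb of the TSS, 12 between 1 and 10 kb and 18 between 10 and 30 kb, and 21 were upstream and 18 downstream of the TSS. By the annotation of protein-coding genes, 27 summits were intergenic, 7 were in introns and 5 in exons, of which 3 were coding. Some of the 27 lay in genes that do not code for protein. These were Fosb sites in D830036C21Rik and the promoter and upstream sites of Jun in Junos. Of the summits in introns or exons, 8 lay in the member gene itself and the others in Rtn2, Reep2 or Grasp. Within 1 kb of their own TSS, 7 of the 10 genes (Fos, Fosb, Fosl2, Jun, Egr1, Arc and Nr4a1) had a site, against 23.2% of all protein-coding genes. Junb, Npas4 and Nr4a3 had none, although a Junb site lay 343 bp from another annotated Junb transcript start. With any annotated transcript start in place of the TSS, 8 of the 10 genes had a site within 1 kb. No share over all genes is available for this count. For 32 of the 39 sites the nearest TSS of any protein-coding gene was that of the member itself, and 7 were nearer to a neighbouring gene. The splits of the 39 sites by distance, side, region and nearest gene have no share over all sites beside them. They describe the 39 sites only.

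The sites spanned a wide range of strengths, with a median near that of the whole list. Their fold enrichment, which is the pileup of fragments over the local background of the peak caller with 1 added to each, ran from 5.17 to 20.1 around a median of 7.53, against 7.40 over all sites. The pileup at the summit ranged from 14 to 71 fragments with a median of 23, against 21 over all sites. The 9 sites within 1 kb of a TSS had a median fold enrichment of 10.6 and the 30 others of 7.48, and both groups spanned most of the range, from 5.17 to 20.1 and from 5.33 to 17.0. The local background stood at its floor of 1.69 fragments in 13 of the 39 sites, or 33.3%, against 42.4% of all sites, and its highest value among them was 3.65 at the Egr1 promoter. The part of local background in these values was not tested. The score of a site is 10 times its −log10 q-value, and 14 of the 39 sites, or 35.9%, scored at least 200, against 31.4% of all sites.

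**Figure D3:**
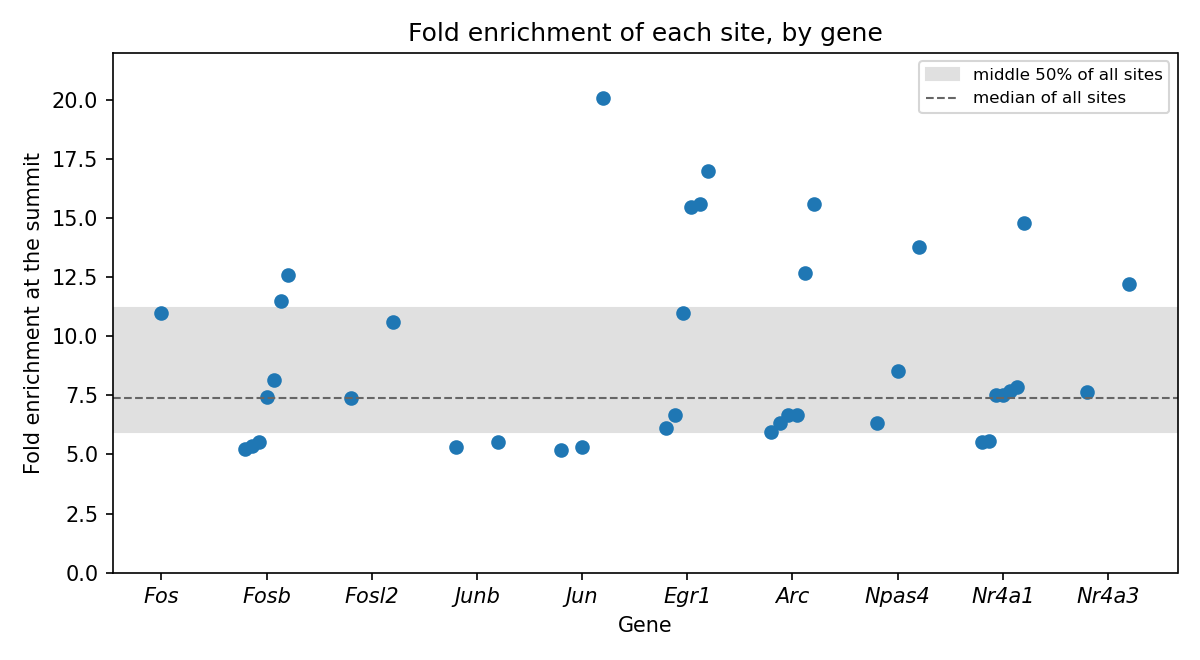
Fold enrichment at the summit (y axis) of each of the 39 sites, by gene (x axis), 1 point for each site. The dashed line is the median of all 23988 sites, 7.40, and the grey band their middle 50%, from 5.95 to 11.2. The highest point is the Jun promoter at 20.1, and both Junb points lie below the band.

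The DNA under the strongest site of each gene except Egr1 is given first, as the 61 bases around the summit. It is read 5′ to 3′ on the strand of the gene from GRCm38. Capitals mark exact matches to the half-site AGGTCA or to AP-1 (TGANTCA, where N was C or G). The window at Fosb holds an AP-1 element beside a half-site, and that at Nr4a3 holds a half-site. The others hold neither, nor any of the other elements searched in the next paragraphs.
Fos, chr12:85473468-85473528: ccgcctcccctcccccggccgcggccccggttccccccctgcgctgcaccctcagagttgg
Fosb, chr7:19321622-19321682: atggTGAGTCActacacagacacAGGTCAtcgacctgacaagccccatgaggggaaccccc
Fosl2, chr5:32135253-32135313: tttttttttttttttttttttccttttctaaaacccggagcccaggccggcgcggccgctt
Jun, chr4:95052271-95052331: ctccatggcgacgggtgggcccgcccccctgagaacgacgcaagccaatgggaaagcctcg
Junb, chr8:84986009-84986069: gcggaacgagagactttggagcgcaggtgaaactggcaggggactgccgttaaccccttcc
Arc, chr15:74672733-74672793: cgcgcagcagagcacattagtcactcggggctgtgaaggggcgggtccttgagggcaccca
Npas4, chr19:5002089-5002149: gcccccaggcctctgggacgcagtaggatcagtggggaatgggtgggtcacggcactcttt
Nr4a1, chr15:101279612-101279672: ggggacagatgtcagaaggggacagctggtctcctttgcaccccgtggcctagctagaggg
Nr4a3, chr4:48047229-48047289: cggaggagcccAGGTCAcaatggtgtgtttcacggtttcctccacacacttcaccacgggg

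DR4, the element through which TR is known to bind, was searched on both strands with at most 2 mismatches in its 12 half-site bases. It was present in 2 of the 39 sites, or 5.13%, against 17.3% of all sites, and in both it lay within 100 bp of the summit, where 13.1% of all sites had one. The 95% Wilson interval of the 2 in 39 ran from 1.42 to 16.9%. Such intervals cover counting error only, and sites of the same gene are not independent. Both matches lay at Npas4, so that 1 of the 10 genes had a site with DR4, against 17.8% of all protein-coding genes. That share includes genes without any site: 12648 genes had a site, and 3911 of them had one with a DR4. None of the windows 5 kb to the right of the 39 summits held a match, against 2.3% of such windows over all sites. With at most 3 mismatches, 12 of the 39 sites and 52.9% of all sites held one. The 2 elements are shown with 10 bases on either side, the half-sites in capitals and the coordinates being those of the element.
Npas4, downstream site, chr19:4983561-4983576, minus strand: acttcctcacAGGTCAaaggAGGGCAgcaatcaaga
Npas4, upstream site, chr19:5007732-5007747, plus strand: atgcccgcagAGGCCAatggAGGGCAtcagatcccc

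The downstream element differed from the consensus at 1 base and lay 64 bp from the summit of its site, and the upstream element differed at 2 bases and lay 18 bp from the summit. A single half-site AGGTCA without mismatch was found within 100 bp of 7 summits, or 17.9% (8.98 to 32.7), against 17.8% of all sites. These 7 belonged to 6 genes (Fosb, Fosl2, Jun, Arc, Npas4 and Nr4a3). The NBRE, AAAGGTCA, to which the Nr4a receptors bind as monomers and which contains the TR half-site, was found at 0 of the 39 summits, which allows a share of up to 8.97% by the same interval, against 1.15% of all sites.

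The elements of the factors that act on immediate early genes were then searched in the same windows, without mismatches and on both strands. A match describes the letters in the window, and the lack of one says nothing about the factor. The MEF2 element was found at 5 of the 39 summits, or 12.8% (5.6 to 26.7), against 0.838% of all sites. They were a site at Arc, a site at Nr4a1, a site at Nr4a3 and 2 sites at Jun. The EGR element (GCGNGGGCG, where N was G or T) was also found at 5 summits, or 12.8% (5.6 to 26.7), against 1.68% of all sites. It occurred at 3 sites of Nr4a1, at 1 of Nr4a3 and at the promoter site of Egr1, the gene of the protein that binds it. Within 50 bp of the summit the counts were 1 for MEF2 and 2 for EGR, against 0.459 and 0.88% of all sites. Among the 14 sites that scored at least 200 they were also 1 and 2, or 7.14 and 14.3%, against 0.863 and 2.15% of all such sites. The windows were richer in G and C than those of the whole list, with a median of 59.2% against 50.7%, and the part of base composition in these shares was not tested.

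The remaining elements were rare. The CArG box bound by SRF was found at 1 of the 39 summits, that of Fos, or 2.56% (0.454 to 13.2), against 1.13% of all sites. The CRE bound by CREB, TGACGTCA, was found at 1 summit, that of the site 25373 bp downstream of the Nr4a1 TSS, against 0.542% of all sites. The AP-1 element was found at 1 summit, that of the Fosb site shown above, against 8.38% of all sites. Farther from the summit but inside the site, AP-1 matches also lay at Fosb, Fosl2 and Nr4a1, there also in the site with the CRE. CArG boxes lay in this way at Junb, Egr1, Arc and Npas4. Such matches have no share over all sites beside them. At 25 of the 39 summits, or 64.1%, no DR4, NBRE, AP-1, CRE, CArG, MEF2 or EGR match was present, against 75.3% of all sites.

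**Figure D4:**
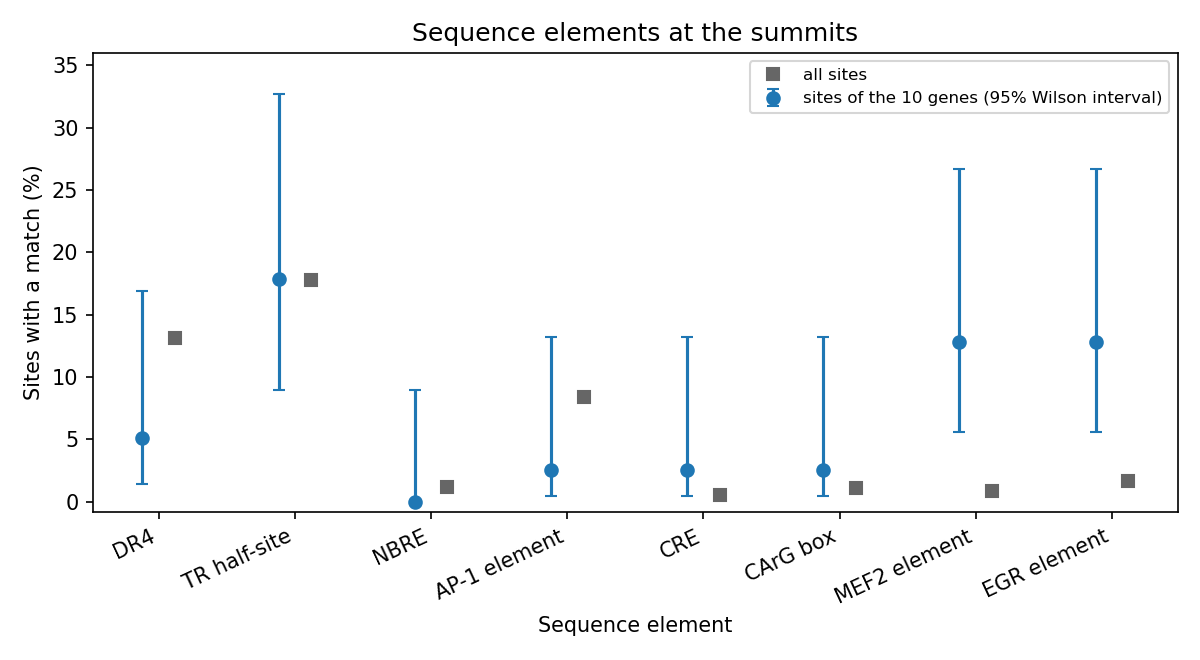
Share of sites with a match within 100 bp of the summit (y axis, %) for each of 8 elements (x axis). Blue points are the 39 sites of the 10 genes with 95% Wilson intervals, and grey squares all 23988 sites. DR4 stood at 5.13% against 13.1%, and MEF2 and EGR at 12.8% each against 0.838 and 1.68%.

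Matches at the sites of Fos, Jun, Arc, Nr4a1 and Nr4a3 are shown because they combine a site near or far from the promoter with an element of the activity response. Each is given 5′ to 3′ with 10 bases on either side and the element in capitals. The coordinates are those of the element in GRCm38.
Fos, CArG box, chr12:85473581-85473590, plus strand: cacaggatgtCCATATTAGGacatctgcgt
Jun promoter, MEF2, chr4:95052246-95052255, plus strand: cagtcaatccCTAAAAATAGcccatgatgt
Jun upstream site, MEF2, chr4:95070040-95070049, plus strand: tttctcagttCTAAAAATAGggataataat
Arc downstream site, MEF2, chr15:74662141-74662150, plus strand: ctaacagtgaCTAAAAATAGattcctttac
Nr4a1 first promoter, MEF2, chr15:101254074-101254083, plus strand: ccgggcgccgCTATTTTTAGcccattgatg
Nr4a1 first promoter, EGR, chr15:101254226-101254234, plus strand: ggaaccgcgtGCGGGGGCGcccgacgcgg
Nr4a1 internal promoter, EGR, chr15:101266786-101266794, minus strand: atggagagggGCGGGGGCGccactgacgc
Nr4a1 downstream site, CRE, chr15:101279731-101279738, plus strand: gcccccaggcTGACGTCAgtcccactcg
Nr4a3 upstream site, MEF2, chr4:48043258-48043267, plus strand: cgacgtcccaCTAAAAATAGctgggacccg
Nr4a3 intronic site, EGR, chr4:48047201-48047209, minus strand: caatcggggaGCGGGGGCGgaggttgggc

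Fos (chromosome 12, 85473890 to 85477273, plus strand), the most widely used marker of neuronal activity, had a single site. It ran from 85473306 to 85473625, and its summit lay 392 bp upstream of the TSS. The pileup there was 34 and the fold enrichment 11, at or above the value of 74.4% of all sites. The CArG box in it, 305 bp upstream of the TSS and 87 bp from the summit, is part of the serum response element through which SRF is known to act on Fos. No site was attached to the gene body or to the flank downstream of it.

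Fosb (chromosome 7, 19302696 to 19310051, minus strand), whose stable product ΔFosB accumulates in the striatum under repeated stimulation, had 7 sites. Its fold enrichments ran from 5.25 to 12.6 with a median of 7.44. The strongest lay 11601 bp upstream, where 36 fragments were piled up, and the next, 11.5, lay 18535 bp downstream in an intron of Rtn2. The promoter site, 536 bp upstream, and the site in the gene body, 1344 bp downstream, were among the weakest, at 5.25 and 5.54. The 3 sites at 9001, 11601 and 16611 bp upstream reached 7.44, 12.6 and 8.15, each above the value at the promoter, with no replicate error to set beside the difference. The site 27023 bp downstream lay 404 bp from the TSS of Rtn2, and with the other intronic site of Rtn2 it was nearer to that gene.

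Fosl2 (chromosome 5, 32135801 to 32157842, plus strand), a further partner in AP-1, had 2 sites, both upstream. The one 518 bp from the TSS had a fold enrichment of 10.6 and that at 20315 bp had 7.40, each with a pileup of 28. RefSeq places the start of Fosl2 671 bp further downstream, from which the promoter site was 1189 bp away.

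Of the Jun family, Jun held the strongest site of the list, whereas the best site of Junb was the weakest best site among the 10 genes. Jun (chromosome 4, 95049034 to 95052222, minus strand) had 3 sites. The strongest was 1176 bp wide, longer than or equal to 98.1% of all sites, with its summit 79 bp upstream of the TSS, 68 piled-up fragments and an enrichment of 20.1-fold. A MEF2 element lay 28 bp upstream of the TSS inside it. The other 2 Jun sites were weak, at 5.17 in the coding exon 986 bp downstream and at 5.33 at 17844 bp upstream, where the same MEF2 letters lay 22 bp from the summit. Junb (chromosome 8, 84974484 to 84978718, minus strand) had only weak sites, at 5.33 in an annotated intron 2519 bp downstream and at 5.54 at 7321 bp upstream, the latter nearer to Hook2. Neither Junb site reached a score of 200.

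Npas4 (chromosome 19, 4984355 to 4990316, minus strand), which is induced by calcium entry and regulates inhibitory synapses, had 3 sites, none at its promoter. The strongest, 11803 bp upstream, reached 13.8-fold from 36 fragments and had a CArG box 262 bp from its summit. The site 6812 bp downstream had a fold enrichment of 8.55 and the one 17441 bp upstream had 6.32. These latter 2 were the sites with a DR4, so that at Npas4 the strongest site was the one without this element. The local background was at its floor at all 3, and the site farthest upstream was nearer to Slc29a2.

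Nr4a1 (chromosome 15, 101254269 to 101274795, plus strand), also known as Nur77, had 7 sites with fold enrichments of 5.52 to 14.8. The annotated gene starts at a distant first exon, where a site 126 bp upstream of the TSS had a fold enrichment of 7.70, a MEF2 element and an EGR element. RefSeq places the start of Nr4a1 12577 bp further downstream, and 2 sites lay at this internal promoter, 489 and 108 bp upstream of it, with fold enrichments of 5.52 and 7.53. Sites were thus present at both starts of Nr4a1. The strongest site, 14.8 with a pileup of 43, lay 25373 bp downstream of the TSS, beyond the end of the gene, and held the CRE. Its nearest TSS was that of Atg101, at 4630 bp. The others, at 7730, 13078 and 22382 bp upstream, had 7.84, 7.53 and 5.58, the last of them in a coding exon of Grasp.

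The internal promoter of Nr4a1 carried 2 MEF2 elements in the same site, 153 and 187 bp from its summit and separated by 24 bases. MEF2 is known to act on Nr4a1 through a pair of elements in its promoter. They are shown in capitals in the 64 bases that hold them, on the strand of the gene.
Nr4a1, MEF2 pair, chr15:101266537-101266600: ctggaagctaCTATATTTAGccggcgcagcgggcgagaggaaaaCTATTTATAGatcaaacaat

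Nr4a3 (chromosome 4, 48045153 to 48086447, plus strand), the third receptor of the family with Nr4a1 and Nr4a2, had 2 sites, 1 on either side of the TSS. The stronger, 12.2 with a pileup of 38, lay in an intron 2106 bp downstream and held an EGR element, and the other, 7.66, lay 1968 bp upstream and held a MEF2 element. Nr4a2 had no site.

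Arc (chromosome 15, 74669083 to 74672570, minus strand), the effector of the list, had 6 sites with fold enrichments of 5.95 to 15.6, and each of them was nearer to the TSS of Arc than to that of any other gene. The strongest, 193 bp upstream of the TSS, was 1363 bp wide, longer than or equal to 99.2% of all sites, with a pileup of 41. It held a CArG box 928 bp upstream of the TSS and 735 bp from its summit, outside the window searched at all summits. Downstream of the TSS the fold enrichment was 5.95 at 956 bp in the coding exon, 6.32 at 4981 bp, 12.7 at 7842 bp and 6.69 at 10517 bp, so that the strongest of these lay past the end of the gene. The last of these 4 held a MEF2 element.

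The remaining Arc site, 6847 bp upstream of the TSS, was a weak one, at 6.69 with 17 fragments. An enhancer several kb upstream of Arc, the synaptic activity-responsive element, is known to bind CREB, MEF2 and SRF together. The site held a CArG box 6720 bp upstream of the TSS and 127 bp from its summit, and no exact CRE or MEF2 match. The 110 bases around this box are shown on the strand of the gene, with the box in capitals.
Arc, upstream site, chr15:74679236-74679345: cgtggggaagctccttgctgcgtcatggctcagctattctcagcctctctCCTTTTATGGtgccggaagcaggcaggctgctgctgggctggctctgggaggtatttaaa

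Widths and summed pileups varied among the genes. The widths of the 39 sites had a median of 468 bp, against 422 bp over all sites, and ran from 241 bp in the body of Fosb to 1578 bp. The number of fragments at the summits, added over the sites of a gene, was 34 for Fos and for Junb, 56 for Fosl2, 61 for Nr4a3 and 74 for Npas4. It was 102 for Jun, 142 for Arc, 162 for Fosb and 167 for Nr4a1.

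Egr1 (chromosome 18, 34859823 to 34864984, plus strand), a zinc finger factor that is induced in projection neurons by dopamine, reached the highest such sum, 229, from 6 sites. Fold enrichments ran from 6.11 to 17.0 with a median of 13.2, and 4 of the 6 sites had a score of at least 200, more than at any other of the 10 genes. The strongest, 17.0 with a pileup of 49, lay 4589 bp upstream. The promoter site was the widest of the list with 1578 bp, longer than or equal to 99.6% of all sites, and had the highest pileup, 71, with a fold enrichment of 15.5. Its summit lay 765 bp downstream of the annotated TSS in an untranslated exon and at −619 bp relative to the next annotated transcript start, and 5 CArG boxes lay within the site, 216 to 540 bp from the summit. Downstream of the gene a group of 3 sites at 24562, 28470 and 29303 bp had 15.6, 11 and 6.11. The last site, 18090 bp upstream with 6.69, lay in an intron of Reep2 and was nearer to that gene.

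The 10 genes were then set beside other genes of the activity response. Of 30 other activity-regulated genes, 28 had a site, or 93.3% (78.7 to 98.2), against 57.7% of all protein-coding genes. A median of 3 sites was found per gene, and 15 of the 30 had one within 1 kb of the TSS, against 23.2%. Those with the most sites were Per1, a clock gene that is induced through CREB, with 7 sites and a highest fold enrichment of 25.6, and Rheb, a GTPase upstream of mTOR, with 5 and 36.5. Ier5 had 5 sites and Homer1, which encodes a scaffold of the postsynaptic density, also had 5, with highest values of 24.2 and 17.2. Sites with a DR4 were found at 9 of these 30 genes, against 17.8% of all genes. That share includes genes without any site, and of the 12648 genes with a site 3911 had one with a DR4. The paralogs of the 10 genes were not all occupied. The highest fold enrichment was 26 among the 4 sites of Egr4, 24.1 among the 4 of Egr3, 21.4 at Egr2, which had 2, and 13.1 at Jund, which had 4, whereas Fosl1 and Nr4a2 had none and were the only genes of this list without a site.

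Of 20 genes that encode regulators acting upstream of immediate early genes, 18 had a site, or 90.0% (69.9 to 97.2), against 57.7% of all genes, with a median of 2 sites. Ep300 and Mapk3 had none. With gene bodies left out of the rule and only the 30 kb limit kept, 16 of the 20 had a site, against 53.3% of all genes. Cacna1c, which encodes an L-type calcium channel, had 14 sites, 12 of them in its long gene body, with a highest fold enrichment of 46.1. Camk2a and Camk4, calcium-dependent kinases, had 9 and 6 sites with highest values of 10.8 and 21.0. Rps6ka5, whose kinase phosphorylates CREB, had 5 sites with 10.4, and the dopamine receptor gene Drd1, which was also in the striatal list, had 4 with 20.1. Sites with a DR4 were found at 7 of the 20 genes, against the same 17.8% of all genes and 3911 of the 12648 genes with a site.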

How the data were processed

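TRα1 occupancy had been measured by ChIP-seq in striatum crosslinked with disuccinimidyl glutarate and formaldehyde, and groups were taken from the sample titles. The submitters' processing notes name mm10, Bowtie2 2.3.2.2 and MACS2 2.1.1.20160309.0, and the authors kept peaks that scored at least 60. Pooling of the 2 ChIP libraries before peak calling is not given in the sources used here. The deposited peak list gives the pileup (a signal, the fragment coverage at the summit), the fold enrichment (a ratio of pileup to local background), p- and q-values as −log10, and a score that is 10 times −log10 q. None of the authors' p-values was used as a test here.

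Positions are 1-based on GRCm38. Gene models came from GENCODE M21 (55413 genes), and sequences from the RefSeq copy of GRCm38.p6. Of the list and marker genes, 82 RefSeq promoter sequences were identical to the genome at their coordinates. No site ran past a chromosome end. RefSeq starts were matched for 8 of the 10 genes, not for Arc and Egr1. The local background was computed as (pileup + 1)/fold enrichment − 1. Elements were searched in the 201 bp around each summit and, for DR4, in the whole site. At the 39 sites AP-1, CRE, CArG, MEF2, EGR and NBRE were also searched in the whole site, to place single matches. These whole-site matches have no share over all sites beside them. No test was run on the 10 genes. The genes, lists, elements and alternatives were chosen with earlier results of these data known. All 10 genes were named, with their paralogs, the 5 genes of each other list with the most sites, and neighbours whose TSS was nearer to a site. One gene that this rule names is not reported here. Penk, Tac1, Adora2a, Ep300 and Mapk3 fall outside the rule and were named after their values were seen. The matches and longer stretches printed beside the DR4 elements and summit windows were chosen after their values were seen. No sequence of Egr1 is shown. The search and the assignment were tested on simulated data. Scripts ran in Python 3.11.15 with pandas 2.3.3 and numpy 2.4.6, intervals came from scipy 1.17.1 and figures from matplotlib 3.10.9.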

Additional observations from a re-analysis of the deposited data

How the results depend on the processing

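The peak list has no values per library, so these shares and values have no error between animals, and the number of reads behind a pileup is not known here. No paired analysis was possible because the list has no column for a single library, and for the same reason no replicate could be left out. Of the 72 alternative values, 43 stayed within 1.5 times of the reported count or at the same median and 29 did not; the cause was not tested. All 10 genes kept a site under every alternative except a score of at least 200, where Junb dropped out and 9 remained, against 30.6% of all genes.

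The 39 sites became 23 within 10 kb and 14 with a score of at least 200. This minimum took the upstream regulators with a site from 18 to 11, and the share over all genes from 57.7 to 30.6%. The 7 genes with a promoter site became 4 within 500 bp, against 19.1% of all genes. The median fold enrichment was 7.66 within 10 kb, 7.44 within 50 kb and 13.2 with a score of at least 200 (14.5 over all such sites). Over the strongest site of each gene it was 13.2, against 10 over all genes with a site. The strongest was taken from a median of 3 sites per member, against a median of 1 over all genes. The 2 sites with DR4 were 1 with at most 1 mismatch, 12 with at most 3 and 0 with a score of at least 200, against 3.86, 52.9 and 21.7% of all sites. At the summit they were 1, 9 and 0, against 3.11, 38.2 and 16.3%, and they were 1 within 50 bp and 1 around the midpoint, against 9.06 and 11.8%.

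Within 50 bp of the summit, matches were 0 for CRE, 0 for CArG, 1 for MEF2, 2 for EGR and 4 for the half-site, against 0.258, 0.496, 0.459, 0.88 and 11.2% of all sites. Within 250 bp they were 3 for AP-1, 3 for CArG, 8 for MEF2, 1 for NBRE and 12 for the half-site, against 14.7, 2.71, 1.69, 2.58 and 31% of all sites. Among the 14 sites with a score of at least 200 they were 1 for MEF2, 2 for EGR and 4 for the half-site, against 0.863, 2.15 and 17.8% of all such sites. RefSeq starts, an alternative chosen after seeing the data, gave 38 sites and 6 genes with a promoter site. Arc and Egr1, for which no RefSeq start was matched, kept their GENCODE start in these counts. No share over all genes is available for this alternative.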

Other observations

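Some sites lay just outside the limit of 30 kb. They were found 30150 bp upstream of Nr4a1 (fold enrichment 6.66), 30176 bp downstream of Arc (6.32), 30989 bp upstream of Egr1 (6.32) and 31273 bp upstream of Fosb (6.09). The farthest sites inside the limit were those 29303 and 28470 bp from Egr1, followed by the one 27023 bp from Fosb. At Fos, whose only attached site is at the promoter, the next site was found 37525 bp upstream, with an enrichment of 11-fold, and no other protein-coding gene had a TSS nearer to it. At Nr4a3 the next site lay 92178 bp upstream with 8.06, and at Jun 72506 bp downstream with 7.03. A limit of 50 kb added 10 sites to the 39.

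The other arrangements of the half-site were also searched at the 39 summits, with at most 2 mismatches. DR0, DR1, DR3, DR5, DR6, ER6 and IR0 were each found at 1 summit, of which DR0, DR1, DR6 and IR0 shared that of the Jun site in the coding exon, and DR2, DR7 and DR8 at 0, each of which allows a share of up to 8.97% (95% Wilson). Among all sites these arrangements were found at 1.24 to 3.23% of summits.

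In the RefSeq promoters of 8 of the 10 genes, from 250 bases before to 50 after the start, the MEF2 element was found at Jun, against 0.557% of 32851 promoters. The EGR element was found at Fosb, Fosl2 and Nr4a1, against 3.47%. No DR4, NBRE, CRE, AP-1 or CArG match was found in these 8, against 3.02, 1.51, 1.79, 5.20 and 1.63% of all promoters. The window left out the CArG box 305 bp upstream of Fos. It also left out the MEF2 pair 295 and 261 bp upstream of the RefSeq start of Nr4a1. Arc and Egr1 were not searched in this way.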
